A study of Mus musculus with 43 samples.

Results

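The genes described here are 8 genes of the vessel lining, the endothelium, taken by name from the deposited table of mouse back-skin RNA: *Sele*, *Selp*, *Icam1*, *Vcam1*, *Ackr1*, *Pecam1*, *Cdh5* and *Vwf*. They are 8 of the 23256 genes in that table. All 8 passed the filter on low values, a normalised read count of at least 10 in at least 4 of the 43 libraries, which left 19170 genes for testing. A normalised read count, also called a value below, is the number of reads of a gene in a library divided by that library's size factor. Poly-A RNA came from the back skin of female mice, 10 to 13 weeks old, of the strains iNZM, NZM and WT, which had received UVB (sunburn-causing ultraviolet) under a chronic regimen, an acute one or not at all. The lupus-prone strain NZM2328, named by the submitters, is written NZM. What iNZM and WT stand for is not spelled out in the labels; in lupus research iNZM is used for NZM2328 animals that lack the receptor of type I interferons. Mice of the chronic regimen got 100 mJ/cm2 a day for 5 days and those of the acute one 300 mJ/cm2 once, and the skin was collected 24 hours after the final dose. The iNZM chronic UVB, iNZM acute UVB, NZM chronic UVB, NZM acute UVB, NZM no UVB, WT chronic UVB and WT acute UVB groups held 5 libraries each, and iNZM no UVB and WT no UVB held 4 each. The labels do not say that each library came from its own animal, so the p-values measure the spread between these libraries, which may be technical in part.

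White blood cells leave the blood in steps, mostly across small veins called venules. E-selectin (*Sele*) and P-selectin (*Selp*) on the endothelium catch rolling cells. ICAM-1 (*Icam1*) and VCAM-1 (*Vcam1*) then hold them through integrins, and ACKR1 (*Ackr1*), a receptor that binds chemokines without signalling through G proteins, is a known mark of venular endothelium. PECAM-1 (*Pecam1*) and VE-cadherin (*Cdh5*) sit at the contacts between endothelial cells and mark the endothelium as a whole. Von Willebrand factor (*Vwf*) is stored with P-selectin in endothelial granules and tethers platelets. In mice *Sele*, *Selp*, *Icam1* and *Vcam1* are known to be switched on by inflammatory cytokines, in part through the factor NF-kB. ICAM-1 is also made by keratinocytes and leukocytes, and P-selectin also by platelets.

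The 250 bases before the RefSeq start are shown for *Sele*, *Selp* and *Icam1*, which were higher after acute UVB in at least 1 strain and for which RefSeq (build GRCm38.p6) gave a window free of annotated exons. They lie at chr1:164047984-164048233, chr1:164115014-164115263 and chr9:21015690-21015939, all on the plus strand, and are written 5′ to 3′. Capitals mark matches to the NF-kB pattern GGNNNTTCC or the AP-1 pattern TGANTCA on either strand, where N is any base.
Sele: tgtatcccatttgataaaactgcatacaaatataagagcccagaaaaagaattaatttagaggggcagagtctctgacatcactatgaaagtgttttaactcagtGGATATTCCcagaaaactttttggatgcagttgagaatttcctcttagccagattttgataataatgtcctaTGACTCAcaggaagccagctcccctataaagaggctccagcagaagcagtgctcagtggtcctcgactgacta
Selp: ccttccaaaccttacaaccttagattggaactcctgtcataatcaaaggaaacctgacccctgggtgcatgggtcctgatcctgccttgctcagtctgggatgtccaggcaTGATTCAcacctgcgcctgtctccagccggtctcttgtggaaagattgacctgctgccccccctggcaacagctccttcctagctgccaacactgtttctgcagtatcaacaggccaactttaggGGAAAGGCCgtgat
Icam1: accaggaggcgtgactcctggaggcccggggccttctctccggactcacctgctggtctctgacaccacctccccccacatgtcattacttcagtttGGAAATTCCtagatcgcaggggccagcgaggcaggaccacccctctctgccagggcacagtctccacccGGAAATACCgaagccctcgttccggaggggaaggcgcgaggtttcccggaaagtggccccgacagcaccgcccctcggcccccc
The NF-kB pattern matched once in *Sele*, at bases -145 to -137 from the start, once in *Selp*, at -14 to -6, and at 2 places in *Icam1*, at -153 to -145 and -84 to -76. The AP-1 pattern matched at -73 to -67 in *Sele* and -139 to -133 in *Selp*. Next to the AP-1 match in *Sele*, without overlap, stood a match to the ETS pattern CAGGAAG, and the GATA pattern AGATAA had no match in these windows. Of 32851 such windows in the mouse, 15.7% held the NF-kB pattern, 6.75% the AP-1 pattern, 10.8% the ETS pattern and 9.99% the GATA pattern. A match describes letters, not bound protein.

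By GENCODE vM21 on GRCm38, all 8 are protein-coding genes. *Sele* (ENSMUSG00000026582.6) and *Selp* (ENSMUSG00000026580.16) both lie on chromosome 1, at 164048234 to 164057677 and 164115264 to 164150026. *Icam1* (ENSMUSG00000037405.8) lies on chromosome 9 at 21015985 to 21028817, and *Vcam1* (ENSMUSG00000027962.14) on chromosome 3 at 116109949 to 116129688. *Ackr1* (ENSMUSG00000037872.5) lies on chromosome 1 at 173331886 to 173333750. *Pecam1* (ENSMUSG00000020717.19) is on chromosome 11 at 106654217 to 106750628, *Cdh5* (ENSMUSG00000031871.9) on chromosome 8 at 104101625 to 104144511, and *Vwf* (ENSMUSG00000001930.17) on chromosome 6 at 125546774 to 125686679. *Ackr1* shared 25.7% of its exon bases with exons of *Cadm3*, *Selp* 14.1%, *Icam1* 11.7% and *Vcam1* 0.688% with exons of other annotated genes, so reads there could have been dropped or assigned elsewhere in counting. The other 4 shared none.

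All 8 genes were detected in all 43 libraries, except that *Selp* had 0 reads in iNZM chronic UVB library 57. A count of 0 allows up to 3 reads there, for counting error only. Per 1000 exon bases, the median level over the 43 libraries was highest for *Cdh5*, at 246, followed by *Pecam1* at 201, *Icam1* at 139 and *Ackr1* at 94.3. *Vwf* (37.3), *Sele* (26.4), *Vcam1* (14.3) and *Selp* (13.2) were lower on this scale, in which exons of all annotated transcripts count. The spread between libraries ordered the genes another way. *Sele* ran from 2.08 to 2065 normalised reads and *Ackr1* from 16.7 to 1046, whereas *Vcam1* (31.2 to 304), *Icam1* (178 to 1769) and *Vwf* (89.6 to 1157) varied least.

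WT acute UVB had the highest mean of 7 of the 8 genes, and the exception was *Vwf*, which was highest in WT no UVB. In *Ackr1* and *Selp* the lowest WT acute UVB library stood above the highest NZM acute UVB library, the next group in order of the mean. In all other places in the order of the 9 groups, neighbouring groups overlapped, for all 8 genes. The iNZM chronic UVB group had the lowest mean of 7 genes, and iNZM acute UVB the lowest mean of *Vwf*.

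**Figure D1:**
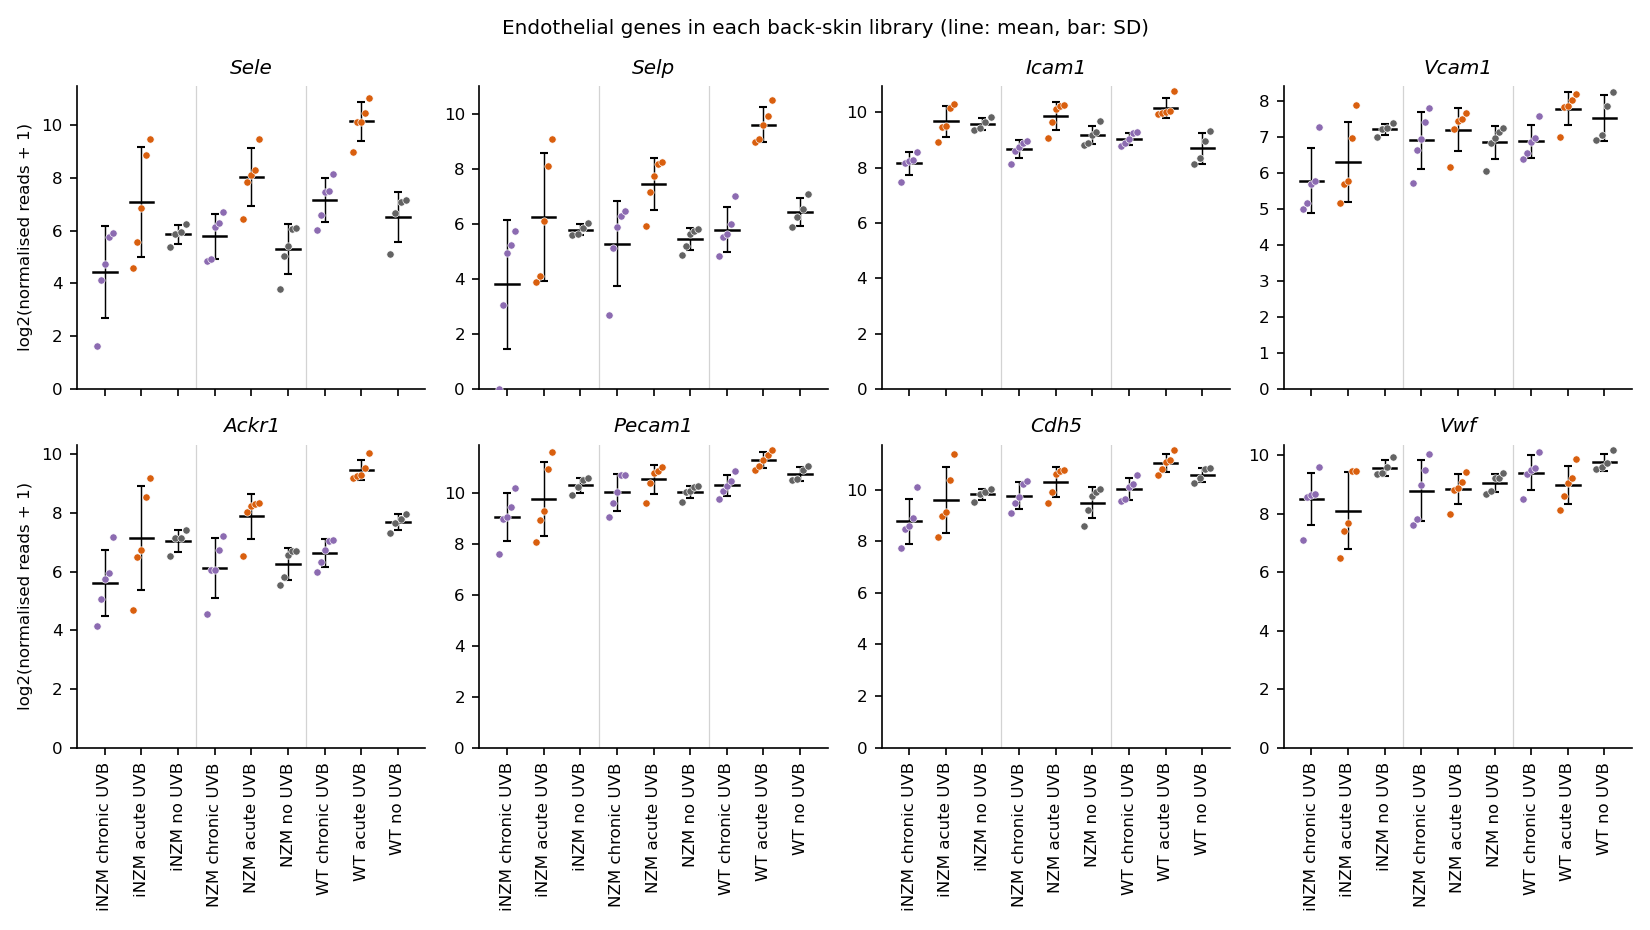
Level of each gene, as log2 of the normalised read count plus 1, in every library of the 9 groups. Points are libraries, lines are group means and bars are SD. *Sele*, *Selp* and *Ackr1* stand highest in WT acute UVB, and the iNZM acute UVB libraries have the largest SD on this scale of all 9 groups in 7 of the 8 genes, with *Selp* the exception.

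The libraries held 18.49 to 37.76 M counted reads (median 24.44 M). In 9 libraries a score of 28 hair follicle genes, the mean of log2 values centred per gene, lay above 5: NZM acute UVB 5, iNZM acute UVB 6 and 49, NZM chronic UVB 17, 55 and 56, and iNZM chronic UVB 22, 24 and 25. WT had none, nor had any group without UVB. Fits without these 9 libraries kept only libraries 23 and 57 of iNZM chronic UVB and 18 and 54 of NZM chronic UVB. They kept libraries 9, 10 and 48 of iNZM acute UVB. The 13 libraries with sample numbers of 46 or above were all exposed to UVB. In whole skin, fewer endothelial cells and less RNA per endothelial cell cannot be told apart. For that reason a pan-endothelial list of 24 other genes (among them *Kdr*, *Flt1*, *Tek*, *Tie1* and *Emcn*) is used beside the members, and all 24 were detected.

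Likeness over the 43 libraries placed most members among endothelial genes. *Pecam1* and *Cdh5* were nearly parallel, with a Pearson r of 0.964 on log2 values, and 0.951 on deviations from the group means. The genes most like *Pecam1* were *Mmrn2* (0.968), *Cdh5* and *S1pr1* (0.954), and those most like *Cdh5* were *Pecam1*, *Esam* (0.952) and *S1pr1* (0.951), out of 13501 candidates. *Selp* was closest to *Ackr1* (0.914), *Eng* (0.909) and *Plvap* (0.9), and *Ackr1* to *Entpd1* (0.94), *Tinagl1* (0.938) and *Sema6b* (0.934). *Sele* was closest to *Grrp1* (0.918), *Tinagl1* (0.911) and *Adcy4* (0.898). *Vcam1* was closest to *Fli1* (0.926), *Pros1* (0.915) and *Vim* (0.913), the gene of the filament protein vimentin. *Vwf* was closest to *Sparcl1* (0.898), *Gucy1a3* (0.878) and *Myct1* (0.875).

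The genes closest to *Icam1* were *Stat3* (0.902), a mediator of cytokine signals, *Bcl3* (0.889), a partner of NF-kB, and *Il1b* (0.878), the gene of interleukin 1 beta. Its r with the other members was 0.781 with *Sele*, 0.77 with *Ackr1* and 0.761 with *Selp*, and lower with *Pecam1* (0.663), *Cdh5* (0.637), *Vcam1* (0.599) and *Vwf* (0.228). *Vwf* also parted from the selectins, with an r of 0.396 with *Sele* and 0.395 with *Selp*, although on deviations from group means these were 0.841 and 0.678. These values share library depth and skin composition and are descriptions.

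**Figure D2:**
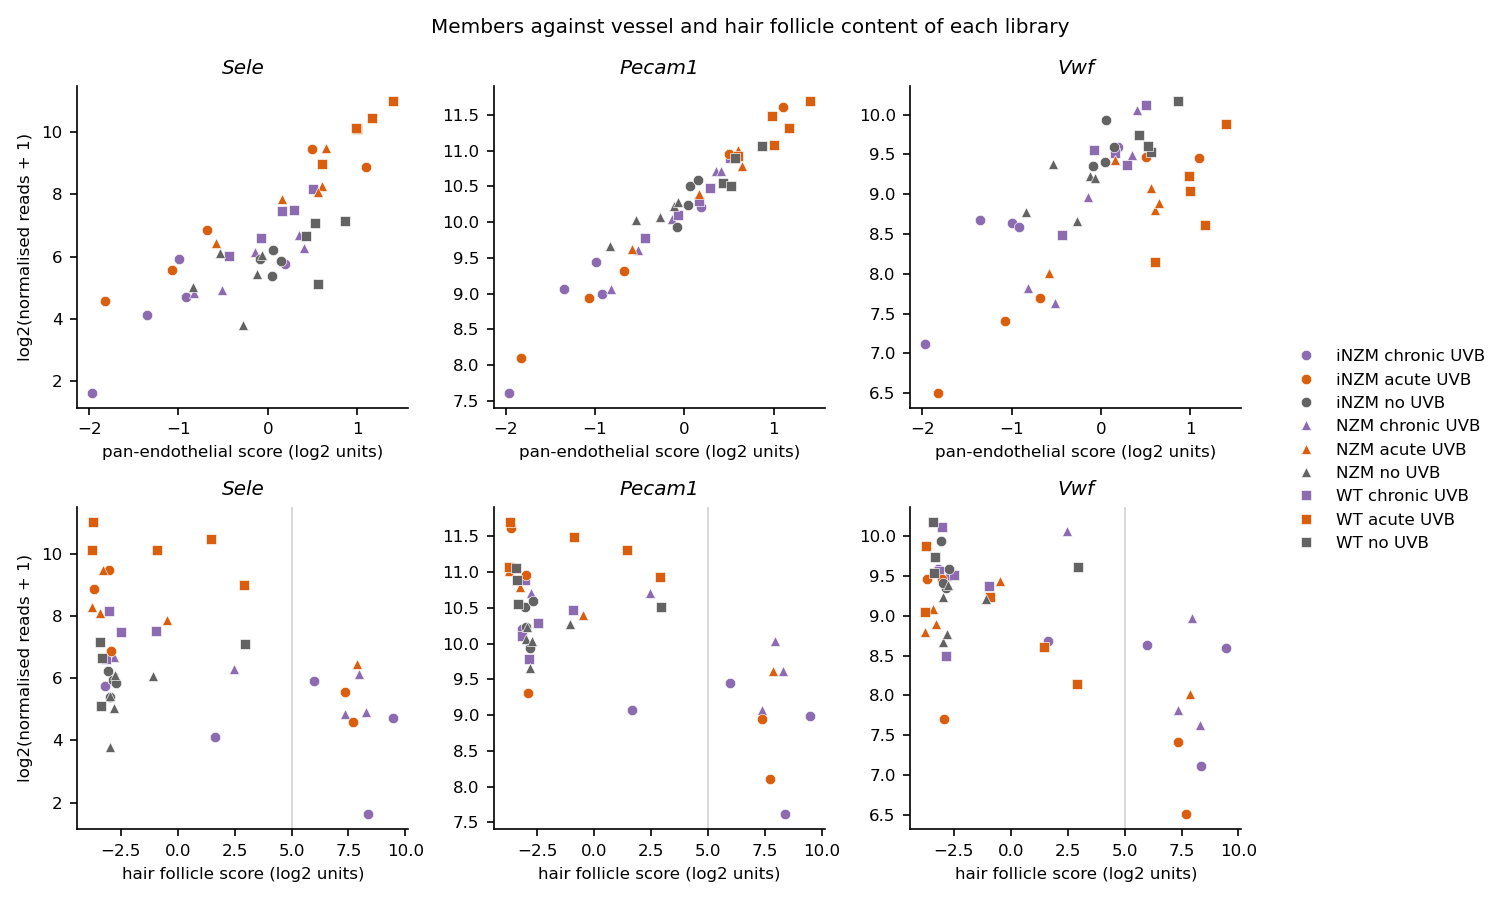
Level of *Sele*, *Pecam1* and *Vwf* (log2 of the normalised read count plus 1) against the pan-endothelial score (upper row) and the hair follicle score (lower row) of each of the 43 libraries, with strain by shape and regimen by colour. *Pecam1* follows the pan-endothelial score closely. At a like score, *Sele* tends to lie higher and *Vwf* lower in acute UVB libraries than in the others, with exceptions in both genes. The grey line marks a hair follicle score of 5.

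The comparison of acute UVB with no UVB asked which of these genes a single dose changed by the next day. The selectins, *Ackr1* and *Icam1* rose in WT, and *Sele*, *Ackr1* and *Icam1* rose in NZM, while *Vcam1*, *Pecam1* and *Cdh5* did not pass the test in any strain. In iNZM no member rose by limma and *Vwf* fell. On recovered reads, edgeR and DESeq2 both called a rise of *Sele* in iNZM and of *Selp* in NZM. DESeq2 also called a rise of *Selp* in iNZM, and neither called the fall of *Vwf*. Tests are limma on log2 values plus 1 with Benjamini-Hochberg adjustment over 19170 genes at 0.05. By that rule members rose in 0 of 8 in iNZM, 3 of 8 in NZM and 4 of 8 in WT, where 12.8%, 10.6% and 10.4% of all genes tested rose. They fell in 1, 0 and 0, where 12.4%, 10.7% and 11.3% of all genes fell. The exposed libraries all lay above the unexposed ones in 10.7% of all genes in iNZM, 9.36% in NZM and 10.2% in WT. The median log2 difference of the 8 was -0.07 in iNZM, 0.74 in NZM and 1.00 in WT, against 0.02 or less for all genes in each.

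E-selectin RNA was the member that moved furthest in WT. *Sele* had 504, 1109, 1121, 1413 and 2065 normalised reads in the WT acute UVB libraries, against 33.7, 99.9, 136 and 141 in WT no UVB. In NZM the values were 85.9, 231, 272, 310.0 and 716 with acute UVB, against 12.8, 31.8, 42.2, 65.9 and 67.9 without. In neither strain did the groups overlap. The log2 difference was 3.64 ± 0.77 in WT (SE, adjusted p = 0.000532) and 2.75 ± 0.73 in NZM (adjusted p = 0.00562, limma).

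In iNZM the acute UVB libraries were split for *Sele*. They had 23.1, 46.5, 116, 466 and 709 normalised reads, against 40.7, 56.9, 60.3 and 74.1 in iNZM no UVB. Libraries 9 and 10 held the highest values, 48 lay above the unexposed range, and 6 and 49, both high in hair follicle score, lay in or below it. The log2 difference was 1.22 ± 0.77 (limma adjusted p = 0.244), and 2.55 ± 0.62 without the libraries high in hair follicle score (adjusted p = 0.00306). DESeq2 (adjusted p = 0.00588) and edgeR (adjusted p = 0.0253) on recovered reads called the rise.

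*Selp* showed the same order of strains. It had 508, 543, 771, 989.8 and 1451 normalised reads in WT acute UVB, against 58.0, 75.2, 93.4 and 137 in WT no UVB, a log2 difference of 3.18 ± 0.88 (limma adjusted p = 0.00706). NZM acute UVB libraries had 59.3, 144, 216, 287 and 303, against 28.1, 36.2, 48.6, 53.3 and 55.2 without UVB. Every NZM library with acute UVB lay above every one without, yet the log2 difference of 1.998 ± 0.83 did not pass (limma adjusted p = 0.0807). It did without library 5, the lowest (0.0459), and by DESeq2 (0.00757) and edgeR (0.0259). In iNZM, values were 13.8, 16.4, 67.7, 277 and 540.3 with acute UVB, against 47.9, 48.6, 56.9 and 64.7 without, which overlap. The log2 difference was 0.48 ± 0.88 by limma (adjusted p = 0.722), 1.74 by edgeR (0.0879) and 1.75 by DESeq2, which called the rise (0.0481).

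*Ackr1* rose by a like amount in NZM and WT. WT acute UVB libraries had 581, 610.2, 629, 733 and 1046 normalised reads, against 159, 199.8, 223 and 249 in WT no UVB, without overlap. NZM acute UVB libraries had 92.1, 263, 301, 313 and 326, against 45.2, 56.0, 93.1, 102 and 103 without UVB. In NZM the lowest of the exposed libraries, 5, lay inside the unexposed range and the other 4 lay above it. The log2 difference was 1.63 ± 0.55 in NZM (adjusted p = 0.0287) and 1.77 ± 0.58 in WT (adjusted p = 0.024, limma). Either call rested on single libraries. In NZM it was lost on leaving out acute UVB library 1, 3, 46 or 47 or no UVB library 31 or 34 (adjusted p up to 0.0754), and in WT without acute UVB library 52 or no UVB library 41 or 43 (up to 0.0644). In iNZM, *Ackr1* had 25.1, 89.9, 106, 373 and 583 with acute UVB, against 91.6, 140.0, 141 and 169.9 without. The log2 difference was 0.08 ± 0.58 by limma (adjusted p = 0.938), 1.10 ± 0.43 without the libraries high in hair follicle score (0.0685), and 0.80 by both edgeR (0.295) and DESeq2 (0.262), none of them called.

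Of the integrin ligands, *Icam1* rose and *Vcam1* did not pass. *Icam1* had 989, 1011, 1022, 1054 and 1769 normalised reads in WT acute UVB, against 279.7, 326, 504 and 642 in WT no UVB, a log2 difference of 1.45 ± 0.27 (limma adjusted p = 7.68e-05). The WT groups did not overlap. NZM acute UVB libraries had 535, 811, 1107, 1208 and 1221, against 456, 476, 584, 629 and 817 without UVB. That difference of 0.69 ± 0.25 lay near the threshold (limma adjusted p = 0.044). It was lost on leaving out acute UVB library 1, 3 or 46 or no UVB library 31, 33, 34 or 35 (up to 0.117). In iNZM, *Icam1* differed by 0.10 ± 0.27 (adjusted p = 0.823). *Vcam1* differed by -0.91 ± 0.45 in iNZM, 0.35 ± 0.42 in NZM and 0.26 ± 0.45 in WT (limma adjusted p = 0.13, 0.605 and 0.753). The iNZM value of *Vcam1* passed without library 10, the highest (0.0206).

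The junction genes did not pass the test after acute UVB. *Pecam1* averaged 1303 ± 1223 normalised reads in iNZM acute UVB and 1296 ± 254 in iNZM no UVB (SD). It averaged 1573 ± 513 in NZM acute UVB and 1072 ± 169 in NZM no UVB, and 2569 ± 552 in WT acute UVB and 1748 ± 328 in WT no UVB. The iNZM acute UVB libraries were split again, with 1984 and 3133 in libraries 9 and 10 and 274 to 634 in the other 3. *Cdh5* differed by -0.21 ± 0.43, 0.80 ± 0.40 and 0.45 ± 0.43 in iNZM, NZM and WT (limma adjusted p = 0.749, 0.158 and 0.518). Without library 5 and the other libraries high in hair follicle score, *Cdh5* rose in NZM by 1.01 ± 0.34 (adjusted p = 0.0271).

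*Vwf* had negative differences in all 3 strains, of which that in iNZM passed. In iNZM acute UVB it had 89.6, 169, 207, 702 and 704 normalised reads, against 652, 678, 771 and 978 in iNZM no UVB. Libraries 9 and 10 lay inside the unexposed range and the other 3 far below it. The fall of -1.47 ± 0.49 (limma adjusted p = 0.0246) was not called by edgeR (0.0993) or DESeq2 (0.0778), without the libraries high in hair follicle score (0.201) or when only these groups were fitted (0.122). It was also lost on leaving out acute UVB library 6 or 49 or no UVB library 37 or 39 (up to 0.117). *Vwf* had 257, 445, 475, 542 and 690.2 in NZM acute UVB, against 406, 436, 591, 599 and 667 in NZM no UVB, and 282, 390.3, 526, 599.7 and 941 in WT acute UVB, against 739, 782, 857 and 1157 in WT no UVB. Those differences were -0.21 ± 0.46 and -0.78 ± 0.49 (limma adjusted p = 0.796 and 0.279).

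**Figure D3:**
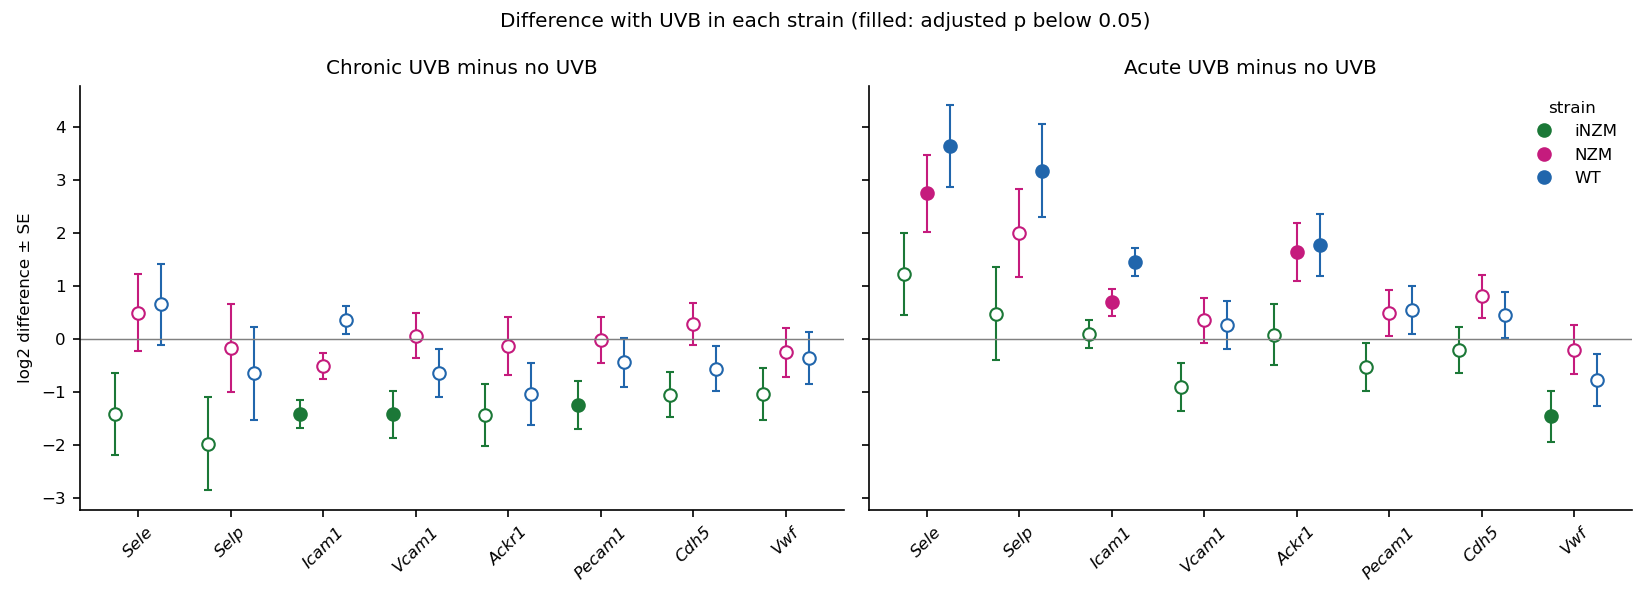
Log2 difference of each gene between chronic UVB and no UVB (left) and acute UVB and no UVB (right) in iNZM, NZM and WT. Points are limma estimates, bars are SE, and filled points have an adjusted p below 0.05. After acute UVB *Sele* differs by 1.22, 2.75 and 3.64 in the 3 strains, and after chronic UVB all 8 iNZM estimates lie below 0.

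Set against the sum of the 24 pan-endothelial genes, *Sele* was higher and *Vwf* lower after acute UVB, while *Pecam1* and *Cdh5* overlapped. Per 1000 pan-endothelial reads, *Sele* had a median of 17.1 in iNZM acute UVB and 5.91 in iNZM no UVB, 19.99 in NZM acute UVB and 5.67 in NZM no UVB, and 55.0 in WT acute UVB and 7.7 in WT no UVB. The groups did not overlap in any of the 3 strains on this scale. The share of all genes without overlap on this scale is not given here, so these overlaps describe the members alone. The ratio of medians for *Selp* was 2.59 in iNZM, 2.69 in NZM and 5.51 in WT, and for *Ackr1* 1.25, 2.10 and 2.39. The groups overlapped in iNZM for *Selp*, and in iNZM and NZM for *Ackr1*. For *Icam1* it was 1.42, 0.872 and 1.71, without overlap in WT, and for *Vcam1* 0.724, 0.736 and 0.847, without overlap in iNZM. *Pecam1* (0.791, 0.833 and 1.00) and *Cdh5* (1.04, 0.958 and 0.9) overlapped between regimens in each strain. *Vwf* had medians of 31.1 in iNZM acute UVB and 70.9 in iNZM no UVB, 34.5 in NZM acute UVB and 66.0 in NZM no UVB, and 26.1 in WT acute UVB and 58.0 in WT no UVB. In iNZM and WT all exposed libraries lay below all unexposed ones for *Vwf*, and in NZM only library 47, at 59.8, reached the unexposed range, which began at 53.1.

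With the pan-endothelial score as a covariate in limma, *Sele* rose by 1.97 ± 0.45 in iNZM, 1.66 ± 0.43 in NZM and 2.90 ± 0.45 in WT (adjusted p = 0.00111, 0.00349 and 4.45e-06). *Ackr1* rose in all 3 strains, by 0.69 ± 0.25, 0.73 ± 0.24 and 1.16 ± 0.25 (adjusted p = 0.0414, 0.0211 and 0.000536). *Vwf* fell in all 3 strains, by 0.97 ± 0.25, 0.93 ± 0.24 and 1.28 ± 0.25 (adjusted p = 0.00344, 0.00305 and 0.000134). *Selp* passed in WT only (2.38 ± 0.56, adjusted p = 0.00131), with 1.27 ± 0.56 in iNZM (adjusted p = 0.0957) and 0.83 ± 0.54 in NZM (adjusted p = 0.252). *Icam1* kept its rise in WT (1.25 ± 0.20, adjusted p = 8.17e-06) and did not pass in NZM (0.38 ± 0.19, adjusted p = 0.129). The score itself differed between groups, so this fit asks about members relative to other endothelial genes, not about levels in skin. The share of all genes called in this fit is not given here, so these calls cannot be set against a general rate.

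**Figure D4:**
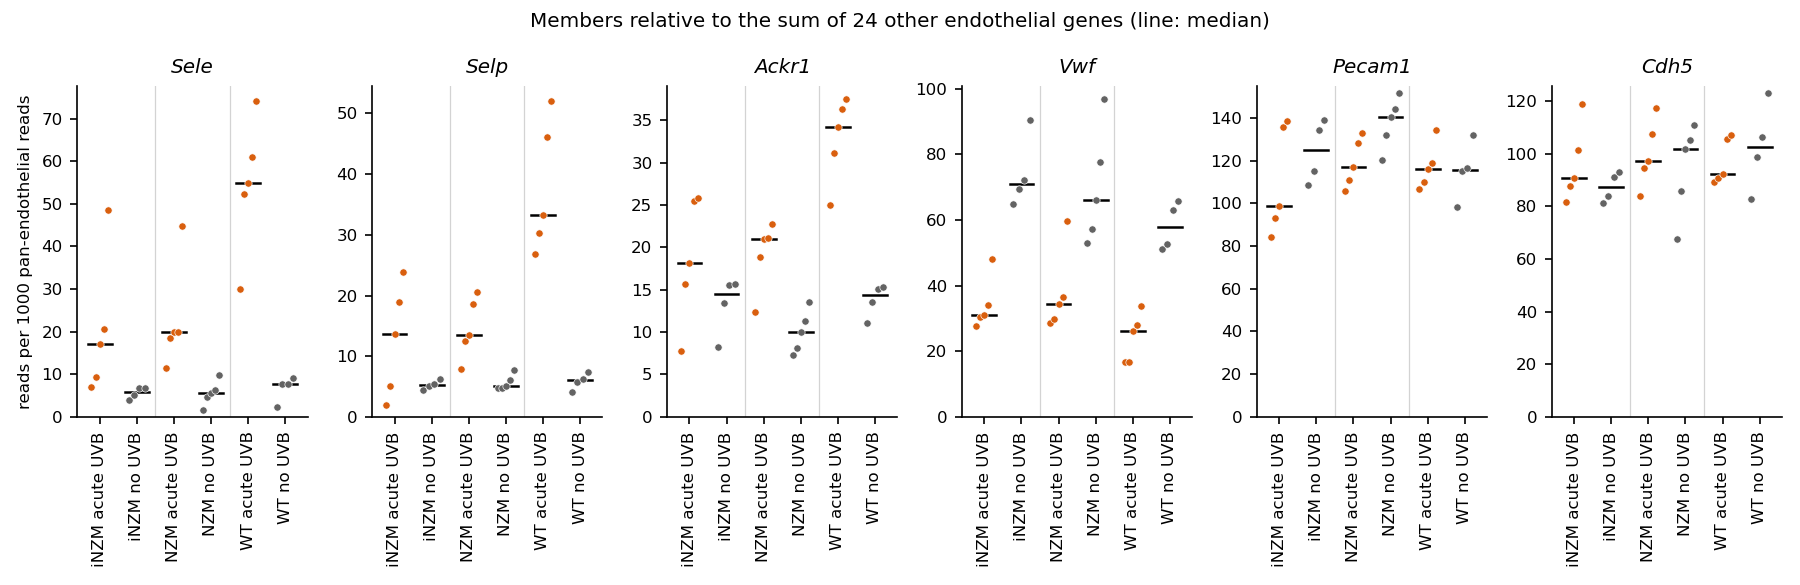
Reads of 6 members per 1000 reads of the 24 pan-endothelial genes in libraries with acute UVB and without UVB, in iNZM, NZM and WT. Points are libraries and lines are medians. *Sele* lies higher with acute UVB in each strain, *Vwf* lies lower with medians of 26.1 to 34.5 against 58.0 to 70.9, and *Pecam1* and *Cdh5* overlap.

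Other lists gave the surroundings of these changes after acute UVB. Of the 24 pan-endothelial genes 1 rose and 2 fell in iNZM, 6 rose and 0 fell in NZM, and 3 rose and 0 fell in WT, with median log2 differences of -0.57, 0.68 and 0.36. *Mcam*, which encodes an adhesion molecule of vessels, rose in all 3 strains, by 0.81 ± 0.27, 1.75 ± 0.25 and 1.45 ± 0.27 (limma adjusted p = 0.0236, 4.14e-06 and 9.35e-05). *Flt1*, a receptor for vascular growth factors, fell in iNZM by 1.34 ± 0.38 (adjusted p = 0.00921). Of 12 genes linked to venules, 2 rose and 2 fell in iNZM, 4 rose and 1 fell in NZM, and 4 rose and 0 fell in WT. *Csf3*, the gene of a growth factor for neutrophils, averaged 111 normalised reads in iNZM acute UVB, with no reads in iNZM no UVB, 84.8 in NZM acute UVB and 0.201 in NZM no UVB, and 311 in WT acute UVB, with no reads in WT no UVB. *Lrg1* rose in NZM (2.55 ± 0.57, adjusted p = 0.00123) and WT (1.69 ± 0.60, adjusted p = 0.0399). *Ch25h*, which makes an oxidised cholesterol, rose in WT (3.62 ± 0.63, adjusted p = 4.28e-05). Which cells of whole skin made the RNA of *Csf3*, *Lrg1* and *Ch25h* was not tested, so their rise is not a measure of venules.

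Among 25 tested partners of the adhesion cascade, 2 rose and 4 fell in iNZM, 7 rose and 2 fell in NZM, and 3 rose and 2 fell in WT after acute UVB. *St3gal4*, an enzyme that helps build selectin ligands, rose in all 3 strains, by 0.79 ± 0.22, 1.12 ± 0.21 and 0.91 ± 0.22 (limma adjusted p = 0.00837, 0.000159 and 0.0024). Of 20 tested inducers and NF-kB genes, 1 rose and 10 fell in iNZM, 3 rose and 1 fell in NZM, and 5 rose and 2 fell in WT. *Bcl3* rose in each strain, by 1.32 ± 0.48, 2.68 ± 0.46 and 3.17 ± 0.48, and *Il1b* rose in NZM (2.88 ± 0.86) and WT (5.66 ± 0.91). *Nfkbia*, an inhibitor of NF-kB and a target of it, fell in iNZM by 1.03 ± 0.28 and in NZM by 0.99 ± 0.26 (limma adjusted p = 0.00537 and 0.00545). Few pericyte and vascular smooth muscle genes were called, with 0, 0 and 1 of 11 rising and 0, 0 and 1 falling in iNZM, NZM and WT.

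Markers of blood cells were also compared between acute UVB and no UVB, and they did not follow the members in every strain. Neutrophil genes rose in 7 of 9 tested in iNZM, 8 of 9 in NZM and 8 of 9 in WT. The sum of the 11 neutrophil genes in the table was 1327 to 42559 in iNZM acute UVB and 2729.7 to 3525 in iNZM no UVB, 6459 to 26168 in NZM acute UVB and 2169 to 3039 in NZM no UVB, and 3267 to 11374 in WT acute UVB and 1862 to 2253 in WT no UVB. *Ly6g*, a defining neutrophil marker, was at 0 in all libraries without UVB. Leukocyte and macrophage genes rose in 0, 6 and 1 of 12 in iNZM, NZM and WT, with sums of 854 to 31553, 2803 to 20305 and 5999 to 44781 with acute UVB, against 6329.7 to 19249, 3841 to 4767 and 8166 to 54961 without. Platelet genes rose in 1, 2 and 1 of 6 tested, *Itga2b* in NZM and WT among them, and the sum of the 8 in the table was 156 to 2079.7, 203 to 961 and 425 to 1299 with acute UVB, against 348 to 666, 120.2 to 214 and 209.7 to 1446 without. No platelet gene in the table was at 0 throughout a group. The part of these cells in *Icam1* and *Selp* was not tested.

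Skin after 5 smaller doses was next set against unexposed skin of the same strain. In NZM and WT no member passed the test. In iNZM *Icam1*, *Vcam1* and *Pecam1* fell. Members fell in 3 of 8 in iNZM and 0 of 8 in NZM and WT, where 15.7%, 9.78% and 16.8% of all genes fell, and 0 rose in any strain, where 13.1%, 9.2% and 18.4% of all genes rose. At an unadjusted p below 0.05, limma had 1 member in NZM (*Icam1*) and 0 in WT, and edgeR and DESeq2 called 0 in both. The median log2 difference of the members was -1.42 in iNZM, -0.08 in NZM and -0.50 in WT, against 0.04 or less for all genes in each.

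*Icam1* in iNZM was the clearest of these. It had 178, 288, 303, 311 and 381 normalised reads in iNZM chronic UVB, against 656, 699, 802 and 917 in iNZM no UVB, without overlap, which held in this direction for 10.9% of all genes. It fell by 1.42 ± 0.27 on the log2 scale (limma adjusted p = 0.000283). Without the libraries high in hair follicle score the difference was -1.31 ± 0.28 (limma adjusted p = 0.00158), with only libraries 23 and 57 left in iNZM chronic UVB. With the pan-endothelial score as a covariate it was -0.92 ± 0.21 (limma adjusted p = 0.00536). Set against the summed reads of the pan-endothelial genes, however, *Icam1* had a ratio of medians of 0.978 between iNZM chronic UVB and iNZM no UVB. The groups overlapped on that scale, so it did not show the fall that the covariate fit gave. The cause of this disagreement was not tested. In NZM, *Icam1* averaged 412 ± 85.3 in NZM chronic UVB and 592 ± 145 in NZM no UVB (SD, -0.52 ± 0.25 on the log2 scale, limma adjusted p = 0.14). In WT it averaged 532 ± 78.7 in WT chronic UVB and 438 ± 167 in WT no UVB (0.35 ± 0.27, adjusted p = 0.318).

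*Vcam1* and *Pecam1* fell in iNZM beside 7 of the 24 pan-endothelial genes. *Vcam1* had 31.2, 34.8, 51.1, 53.5 and 154 normalised reads in iNZM chronic UVB, against 127, 147, 152 and 165 in iNZM no UVB. Only library 23 lay within the unexposed range, and the other 4 lay below it. The log2 difference was -1.43 ± 0.45 (limma adjusted p = 0.0178, and 0.0608 without library 24). *Pecam1* had 195, 507, 536, 697 and 1184 in iNZM chronic UVB, against 979, 1207, 1454 and 1543 in iNZM no UVB, a difference of -1.25 ± 0.46 (adjusted p = 0.0371), lost on leaving out chronic UVB library 24 or 25 or no UVB library 37, 39 or 40 (up to 0.155), and with edgeR (0.0688) and DESeq2 (0.0534), which both kept the *Vcam1* call. With the pan-endothelial score as a covariate the differences were -0.36 ± 0.26 for *Vcam1* and -0.03 ± 0.14 for *Pecam1* (adjusted p = 0.415 and 0.937). Without the libraries high in hair follicle score they were -0.69 ± 0.46 and -0.68 ± 0.38 (limma adjusted p = 0.292 and 0.208). That fit held only libraries 23 and 57 of iNZM chronic UVB.

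The other 5 members of iNZM had log2 differences between -1.98 (*Selp*) and -1.05 (*Cdh5* and *Vwf*) after chronic UVB, with limma adjusted p from 0.0579 to 0.159. Without library 23, the highest of the group in 6 of the 8 genes, *Ackr1*, *Selp*, *Cdh5* and *Vwf* also passed (0.0158, 0.032, 0.0113 and 0.0407), making 7 of 8. That fit left library 57 and libraries 22, 24 and 25, which are high in hair follicle score, in iNZM chronic UVB. The share of all genes called in it is not given here. Of the pan-endothelial genes 0 rose and 7 fell in iNZM, led by *Flt1* (-2.41 ± 0.38, limma adjusted p = 5.01e-05), *Tek* (-1.68 ± 0.48) and *Cldn5* (-1.41 ± 0.41), a tight junction gene. In NZM 2 rose and 0 fell, and in WT 1 rose and 2 fell. *Egfl7*, an extracellular protein gene of endothelium, rose in NZM (1.24 ± 0.32) and WT (0.99 ± 0.34), and *Mcam* rose in NZM (1.53 ± 0.25), whereas *Kdr*, the main receptor for vascular growth factor, fell in WT (-1.29 ± 0.47). Of the pericyte channel genes, *Abcc9* fell in all 3 strains (-1.80 ± 0.55 in iNZM, -1.51 ± 0.52 in NZM and -1.97 ± 0.55 in WT), and *Kcnj8* fell in iNZM (-2.15 ± 0.59) and WT (-2.23 ± 0.59). These genes do not stand for the whole pericyte and vascular smooth muscle list. Its score ran from -1.314 to 0.377 in iNZM chronic UVB and -0.028 to 0.37 in iNZM no UVB. In NZM it ran from -0.377 to 0.27 with chronic UVB and -1.196 to 0.405 without. In WT it ran from -0.489 to 0.394 with chronic UVB and 0.445 to 0.739 without. *Tnfaip3*, a target and brake of NF-kB, fell in all 3 strains (-1.66 ± 0.26, -0.92 ± 0.25 and -0.74 ± 0.26). The score of the whole list of inducers and NF-kB genes did not follow it in every strain. It ran from -1.124 to -0.34 in iNZM chronic UVB and 0.43 to 0.605 in iNZM no UVB. In NZM it ran from -0.655 to 0.213 with chronic UVB and -0.086 to 0.376 without. In WT it ran from -0.245 to -0.043 with chronic UVB and -0.617 to 0.075 without.

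Hair follicle and leukocyte genes moved with chronic UVB in iNZM. Hair follicle genes rose in 23 of 28, with sums of 1091 to 1759496 in iNZM chronic UVB and 933 to 1404 in iNZM no UVB, where 8 of them were at 0. They also rose in 21 of 28 in NZM (1084 to 740128 in NZM chronic UVB and 1613 to 2142 in NZM no UVB) and in 0 of 28 in WT. Leukocyte and macrophage genes fell in 11 of 12 in iNZM, with sums of 675 to 4045 in iNZM chronic UVB and 6329.7 to 19249 in iNZM no UVB. Fibroblast genes fell in 8 of 10 (5501 to 60579.7 in iNZM chronic UVB and 60083 to 111521 in iNZM no UVB) and adipocyte genes in 6 of 9 (14561 to 59993 in iNZM chronic UVB and 44533 to 80744 in iNZM no UVB). The part of these cells in the fall of the members was not tested beyond the fits given above.

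In WT after chronic UVB, *Ackr1* had 62.9, 79.7, 105, 132 and 134 normalised reads, against 159, 199.8, 223 and 249 in WT no UVB. The ranges did not overlap, as for 15.0% of all genes in this direction, but the log2 difference of -1.05 ± 0.58 did not pass (limma adjusted p = 0.159), and it did when only these groups were fitted (0.0135). *Sele* averaged 161 ± 86.3 in WT chronic UVB and 103 ± 49.5 in WT no UVB (SD), a difference of 0.65 ± 0.77 (adjusted p = 0.54). Relative to the pan-endothelial score, *Sele* and *Icam1* were higher in WT (1.51 ± 0.45 and 0.59 ± 0.20, limma adjusted p = 0.00836 and 0.0203). In NZM, *Sele* averaged 61.2 ± 32.2 in NZM chronic UVB and 44.1 ± 23.3 in NZM no UVB, and *Ackr1* 81.9 ± 47.8 in NZM chronic UVB and 79.9 ± 27.3 in NZM no UVB. Both sets of ranges overlapped.

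Chronic UVB was then set against acute UVB, regimens that differ in both dose and number of exposures. *Sele* and *Icam1* were lower in all 3 strains. Members fell in 2 of 8 in iNZM, 3 in NZM and 5 in WT, where 4.45%, 3.76% and 17.7% of all genes fell, and 0 rose, where 3.81%, 3.79% and 19.6% of all genes rose. *Sele* differed by -2.65 ± 0.73, -2.25 ± 0.73 and -2.99 ± 0.73 in iNZM, NZM and WT (limma adjusted p = 0.0187, 0.0493 and 0.00143). *Icam1* differed by -1.52 ± 0.25, -1.20 ± 0.25 and -1.11 ± 0.25 (adjusted p = 0.000163, 0.00209 and 0.000636), without overlap in any strain, against 1.58%, 3.44% and 13.3% of all genes without overlap in this direction. *Ackr1* fell in NZM (-1.76 ± 0.55, adjusted p = 0.0401) and WT (-2.82 ± 0.55, adjusted p = 0.000113), and in iNZM, at -1.52 ± 0.55, it was not called by limma (0.0778) but was by edgeR (0.0177) and DESeq2 (0.00324). *Selp* fell in WT (-3.82 ± 0.83, adjusted p = 0.000409), and had -2.46 ± 0.83 in iNZM and -2.17 ± 0.83 in NZM (adjusted p = 0.0565 and 0.101). The iNZM value of *Selp* was called by edgeR (0.013) and DESeq2 (0.000946), and the NZM value by DESeq2 (0.0387) and not by edgeR (0.0859). *Cdh5* fell in WT by 1.01 ± 0.40 (adjusted p = 0.0453), beside 12 of the 24 pan-endothelial genes, and differed little with the pan-endothelial score as a covariate (0.02 ± 0.12, adjusted p = 0.928). On leaving out single libraries, *Cdh5* was lost without acute UVB library 13, 50, 51 or 52 or chronic UVB library 27, 29, 58 or 59 (up to 0.113). *Sele* in iNZM was lost without acute UVB library 9 or 10 or chronic UVB library 24 or 57 (up to 0.0921). In NZM, *Ackr1* was lost without acute UVB library 1, 3, 46 or 47 or chronic UVB library 17, 55 or 56 (up to 0.155), and *Sele* without any of these or library 18 (up to 0.148). These NZM calls of *Ackr1* and *Sele* were also lost without the libraries high in hair follicle score (limma adjusted p = 0.108 and 0.0747). That fit held only libraries 18 and 54 of NZM chronic UVB. *Vwf* differed by 0.42 ± 0.46, -0.05 ± 0.46 and 0.43 ± 0.46 (adjusted p = 0.63, 0.964 and 0.496).

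Markers of other cells moved between the regimens too. Of 9 neutrophil genes 6 fell in iNZM, 3 in NZM and 5 in WT, and the 11 in the table summed to 419 to 6429 in iNZM chronic UVB and 1327 to 42559 in iNZM acute UVB, 1306 to 4984 in NZM chronic UVB and 6459 to 26168 in NZM acute UVB, and 1340.2 to 2886 in WT chronic UVB and 3267 to 11374 in WT acute UVB. Of 12 keratinocyte genes 8 rose and 1 fell in WT (1002452 to 2148116 in WT chronic UVB and 180032 to 368884 in WT acute UVB), 2 rose and 2 fell in iNZM, and 2 rose and 1 fell in NZM. Fibroblast genes fell in 5 of 10 and leukocyte and macrophage genes in 4 of 12 in WT. Their part in the members' differences was not tested.

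Between NZM and WT, the median log2 difference of the 8 members was -0.45 after chronic UVB, -0.75 after acute UVB and -0.85 without UVB, while that of all genes lay between -0.01 and 0.02. In acute UVB skin *Sele* averaged 323 ± 236 in NZM and 1242 ± 566 in WT (SD, n = 5 each), a log2 difference of -2.11 ± 0.73 (limma adjusted p = 0.0486). Only the highest NZM library, 46, lay above the lowest WT library, 15. The call was lost on leaving out NZM library 1, 3, 5 or 47 or WT library 13, 50, 51 or 52 (up to 0.17). *Ackr1* and *Selp* were lower in every NZM than in every WT library, with differences of -1.56 ± 0.55 and -2.17 ± 0.83 that did not pass (limma adjusted p = 0.0524 and 0.0786). NZM libraries all lay below the WT libraries in 6.15% of all genes. DESeq2 called both (0.0257 and 0.0163), and edgeR called *Selp* (0.045) and not *Ackr1* (0.055). In all, 0 of 8 were higher and 1 lower in NZM acute UVB, where 7.96% and 5.08% of all genes were. Among the pan-endothelial genes 0 were higher and 2 lower, *Mcam* (-1.01 ± 0.25) and *Cyyr1*, and with their score as a covariate *Sele* differed by -0.83 ± 0.44 (adjusted p = 0.247). In that fit *Vwf* was higher in NZM (0.72 ± 0.24, adjusted p = 0.0452), against -0.14 ± 0.46 without the covariate. Keratinocyte genes were higher in 7 of 12 (399606 to 737695 in NZM acute UVB and 180032 to 368884 in WT acute UVB) and adipocyte genes lower in 1 of 9 (26389.7 to 46162 in NZM acute UVB and 50272 to 138113 in WT acute UVB), and their part in the members' values was not tested.

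Without UVB, the NZM libraries lay below the WT libraries in *Ackr1*, *Selp*, *Pecam1*, *Cdh5* and *Vwf* with no overlap, as they did in 9.66% of all genes. *Cdh5* had 379, 592, 848, 957 and 1047 normalised reads in NZM no UVB, against 1227, 1387, 1775 and 1808 in WT no UVB. *Pecam1* had 809, 1044, 1073, 1199 and 1238 in NZM no UVB, against 1458, 1495, 1903 and 2136 in WT no UVB. The test over all groups called 0 of 8 in either direction, where 7.47% of all genes were higher and 7.49% lower in NZM. The log2 differences of *Ackr1* and *Cdh5* were -1.42 ± 0.58 and -1.09 ± 0.43 (limma adjusted p = 0.0939 and 0.08), the 2 members with an unadjusted p below 0.05, and edgeR and DESeq2 called 0. When only these groups were fitted, limma called all 5 (adjusted p from 0.00777 to 0.0489). The share of all genes called in that fit is not given here, so this count cannot be set against a general rate. With the pan-endothelial score as a covariate *Pecam1* turned to 0.42 ± 0.13 (adjusted p = 0.0266). Of the pan-endothelial genes 0 were higher and 9 lower in NZM, among them *Mcam* (-1.31 ± 0.27), *Rasip1* (-1.18 ± 0.32) and *Cyyr1* (-1.70 ± 0.52), and their summed values were 5605 to 10297 in NZM no UVB and 13010.1 to 18318 in WT no UVB. Fibroblast genes were lower in 9 of 10 (16109.8 to 53533 in NZM no UVB and 64469 to 289323 in WT no UVB) and adipocyte genes in 9 of 9 (22872 to 49032 in NZM no UVB and 113952 to 193748 in WT no UVB), while keratinocyte genes were higher in 6 of 12 (630423 to 1042249 in NZM no UVB and 338384 to 627844 in WT no UVB). The part of these in the members' values was not tested. *Icam1* alone had a positive difference, 0.48 ± 0.27 (adjusted p = 0.237), and was higher in NZM relative to the pan-endothelial score (0.94 ± 0.21, adjusted p = 0.00167).

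After chronic UVB 0 of 8 members differed between NZM and WT by limma, edgeR or DESeq2, and 0 had an unadjusted limma p below 0.05, where 4.29% of all genes were higher and 3.59% lower. *Sele* had the largest difference, -1.38 ± 0.73 (adjusted p = 0.281).

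Between iNZM and NZM 0 of 8 members were called in any regimen by limma, edgeR or DESeq2. Few genes of any kind were called, with 0.412% lower and 0.0156% higher in iNZM after chronic UVB, 0.219% lower and 0.00522% higher after acute UVB, and 0.0313% lower and 0% higher without UVB. Unadjusted limma p lay below 0.05 for *Vcam1*, *Icam1*, *Pecam1* and *Cdh5* after chronic UVB, for *Vcam1* after acute UVB and for 0 members without UVB. After chronic UVB *Vcam1* differed by -1.12 ± 0.42 and *Cdh5* by -1.01 ± 0.40 (adjusted p = 0.271 and 0.328), and after acute UVB *Vcam1* by -0.90 ± 0.42 (adjusted p = 0.96). All 8 estimates were negative with either UVB regimen and positive without UVB, where *Ackr1* differed most (0.80 ± 0.58, adjusted p = 1). With the pan-endothelial score as a covariate the signs were mixed in each regimen. The estimates then ran from -0.25 (*Vcam1*) to 0.70 (*Vwf*) after chronic UVB and from -0.22 (*Vcam1*) to 0.18 (*Ackr1* and *Sele*) after acute UVB. Without UVB they ran from -0.42 (*Selp*) to 0.23 (*Ackr1*).

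**Figure D5:**
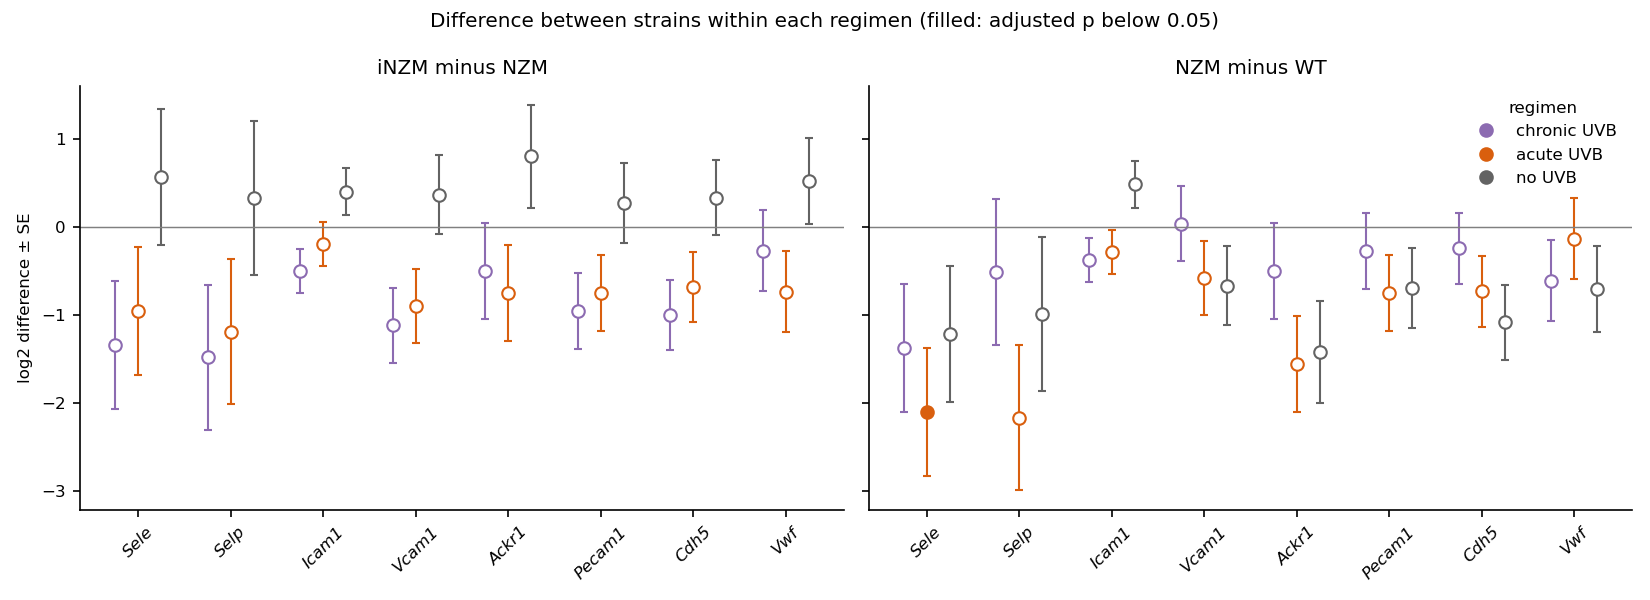
Log2 difference of each gene between iNZM and NZM (left) and NZM and WT (right) within chronic UVB, acute UVB and no UVB. Points are limma estimates, bars are SE, and the filled point has an adjusted p below 0.05. That point is *Sele* in acute UVB skin, at -2.11, and all other points are open.

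Whether strains differed in their response was tested as an interaction, and 0 of 8 members were called in any of the 4 tests, by limma, edgeR or DESeq2. Between iNZM and NZM, 0.00522% of all genes differed in the acute response and 0% in the chronic response, and between NZM and WT 0.115% and 7.58%. Unadjusted limma p lay below 0.05 for *Vcam1* in the acute and for *Vcam1*, *Icam1* and *Cdh5* in the chronic response of iNZM against NZM, and for *Icam1* in both responses of NZM against WT. The acute *Sele* response differed by -1.52 ± 1.06 between iNZM and NZM (-3.67 to 0.63, limma 95% interval) and by -0.89 ± 1.06 between NZM and WT (-3.04 to 1.26). These intervals hold both no difference and differences of more than 2 log2 units, so calls in one strain and not in another do not show that the strains differ. The acute *Icam1* response differed by -0.77 ± 0.36 between NZM and WT (adjusted p = 0.47), and the chronic one by -0.86 ± 0.36 (adjusted p = 0.134), which passed with the pan-endothelial score as a covariate (-1.21 ± 0.28, adjusted p = 0.00347).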

How the data were processed

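Poly-A RNA of mouse back skin was sequenced as paired 151-base reads in 43 libraries, grouped by strain and UVB regimen from the labels. Per the submitters' processing notes, reads were aligned and counted with STAR and HTSeq on mm10 and scaled with DESeq2. The deposited signal values are normalised read counts, 1 column per library. Dividing out each column's smallest step gave whole reads for 100.0% of values (tolerance 0.01) with size factors of 0.6735 to 1.7503. Depth set the counting error, which intervals and floors alone cover, and PCR duplicates were not removed here.

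Values were tested as log2(value + 1) with limma 3.58.1 in R 4.3.3, with 1 mean per group over 43 libraries and Benjamini-Hochberg adjustment over 19170 genes (at least 10 in at least 4 libraries), at 0.05. Fold changes on this scale understate changes of low genes. SE is limma's moderated standard error. edgeR 4.0.16 and DESeq2 1.42.0 ran on recovered reads. Scores are means of log2 values centred per gene. Other alternatives were the pseudocount, the filter, TMM scaling, fitting only the compared groups, covariates, and leaving out libraries. The limma, edgeR and DESeq2 steps were tested on simulated data. The 8 members and all lists were chosen with earlier results of these data known. Besides members, the text names up to 3 genes per list with the smallest adjusted p in a comparison, followed across strains, and the 3 genes most like each member (mean of at least 50). No pair of replicates agreed within sampling noise (chi-square of 16.93 or more per gene). Figures used Python 3.11.15 and matplotlib 3.10.9.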

Additional observations from a re-analysis of the deposited data

Results flagged for a closer look

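In 3 of the 72 combinations of gene and group, 1 library stood apart from the others by Dixon's criterion at 95%, which chance meets in about 1 in 20 groups. *Ackr1* had 92.1 normalised reads in NZM acute UVB library 5, below 262.6 to 326 in the other 4, and this library is also high in hair follicle score. *Vcam1* had 154.3 in iNZM chronic UVB library 23, above 31.2 to 53.5 in the other 4. *Icam1* had 1768.5 in WT acute UVB library 52, above 989 to 1054 in the other 4.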

How the results depend on the processing

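Of the 152 estimates of the 8 genes, 22 were called, and TMM scaling changed none of the calls. The number of members called, 1 for NZM against WT after acute UVB, was 0 with a pseudocount of 0.5, without a filter or when sample numbers of 46 or above were a covariate. It was 2 with a filter at 50, with edgeR or without the 9 libraries high in hair follicle score, and 3 with a pseudocount of 8, with DESeq2, with only the compared groups or when the hair follicle score was a covariate. For chronic against acute UVB, the 2 called in iNZM became 4 with edgeR, with DESeq2 or without the 9 libraries and 0 with only the compared groups, and the 3 called in NZM became 1 with the hair follicle score or without the 9 libraries. For acute UVB against no UVB, the 1 called in iNZM became 2 with DESeq2, 0 with only the compared groups and 3 with the pan-endothelial score, and the 3 called in NZM became 5 with the hair follicle score or without the 9 libraries. For chronic UVB against no UVB, the 3 called in iNZM became 1 with only the compared groups, the pan-endothelial score or the hair follicle score. The 0 called in NZM became 1 with either score, and the 0 called in WT became 2 with the pan-endothelial score and 1 with the hair follicle score, with only the compared groups or without the 9 libraries. For NZM against WT without UVB, the 0 called became 5 with only the compared groups and 2 with either score or without the 9 libraries. For the chronic response of NZM against WT, 0 became 1 with the pan-endothelial score and 4 with the hair follicle score, and for iNZM against NZM after chronic UVB 0 became 1 with the hair follicle score. The share of all genes called under each changed setting, or on leaving out a library, is not given here. These counts therefore cannot be set against a general rate and do not describe the members in particular.

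Leaving out 1 library gave 0 to 1 members called for NZM against WT after acute UVB, 0 to 2, 1 to 4 and 3 to 4 for acute UVB against no UVB in iNZM, NZM and WT, 1 to 7 for chronic UVB against no UVB in iNZM, and 1 to 5, 1 to 3 and 4 to 6 for chronic against acute UVB in iNZM, NZM and WT. With the pan-endothelial score as a covariate 60 estimates that were called in neither fit changed sign, and so did 3 that were called in at least 1: *Vwf* in NZM against WT after acute UVB was 0.72 (limma adjusted p = 0.0452), *Pecam1* in NZM against WT without UVB 0.43 (adjusted p = 0.0266) and *Cdh5* in chronic against acute UVB in WT 0.018 (adjusted p = 0.928). The cause of these changes was not tested. No paired analysis was possible because no replicate number is shared between groups. Groups of 4 or 5 libraries, wide spread in the exposed iNZM and NZM groups and bulk skin limit what these data can tell apart.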
